A study of Arabidopsis thaliana with 4 samples.

Results

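Class III peroxidases are secreted plant enzymes that use hydrogen peroxide to oxidise phenolic compounds and wall proteins. In the root they are best known for coupling monolignols into lignin, for cross-linking the wall protein extensin, and for making or consuming reactive oxygen species in growth and defence. The phenolic part of suberin, the barrier polymer of the phellem, is also thought to be joined by peroxidases. In this process the hydrogen peroxide is supplied largely by NADPH oxidases, and laccases oxidise the same monolignols with oxygen in place of peroxide.

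The members were 54 class III peroxidase genes of Arabidopsis thaliana, taken from a list of loci named PER in this species, out of 27444 nuclear protein-coding genes. The list was drawn up with earlier results of these data known and leaves out part of the family. All 54 were found by locus identifier in the RefSeq gene table, which gives a name to 13 of them, so the other 41 are called here by their locus. A member counted as bound when the authors had assigned at least 1 MYB67 peak to it.

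The peaks came from DAP-seq, in which a tagged transcription factor on beads captures sheared naked genomic DNA. The libraries were 2 with Halo-tagged MYB67, an R2R3 MYB factor studied for its part in phellem maturation, and 2 with an empty vector giving the Halo tag alone. All 4 used wheat germ extract and genomic DNA of wild-type Col-0. The protocol names leaf as the source of the DNA and the tissue label reads root. The DNA carried no chromatin, and no gene expression was measured, so binding in a root cell was not observed. The peaks are deposited as 1 list without values for single libraries. Depth per library is unknown and nothing below could be tested against replicate spread.

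MYB67 peaks were assigned to 16 of the 54 peroxidase genes (29.6%, 95% Wilson interval 19.1 to 42.8%), whereas 14.7% of all nuclear protein-coding genes had a peak. Among the 27390 other genes, 4014 had a peak (14.7%, interval 14.2 to 15.1%). The intervals cover counting error only. The 16 genes carried 19 peaks, and 38 members had none. Of the members, 3 of 8 on chromosome 1 had a peak, 2 of 9 on chromosome 2, 2 of 8 on chromosome 3, 3 of 11 on chromosome 4 and 6 of 18 on chromosome 5. A further 19 loci known as class III peroxidases, listed after the data had been seen, had no peak. Over these 73 loci the share was 21.9% (interval 14.0 to 32.7%), which reaches down to the background of 14.7%.

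With stricter sets of peaks the count of bound members was lower, as was the background, as the plot of shares by peak set shows. At a −log10 q of at least 10, where q is the false discovery rate of the peak, 10 members had a peak (18.5%), against 6.07% of all genes. Among peaks in the upper 50% by fold, 9 members had a peak (16.7%), against 7.81%. When the peak had to hold a strong motif site, at a site q of up to 0.01, 8 members remained (14.8%), against 7.63%. As the 19 further loci had no peak, the counts over the 73 loci stay at 10, 9 and 8, and each share is lower there.

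**Figure D1:**
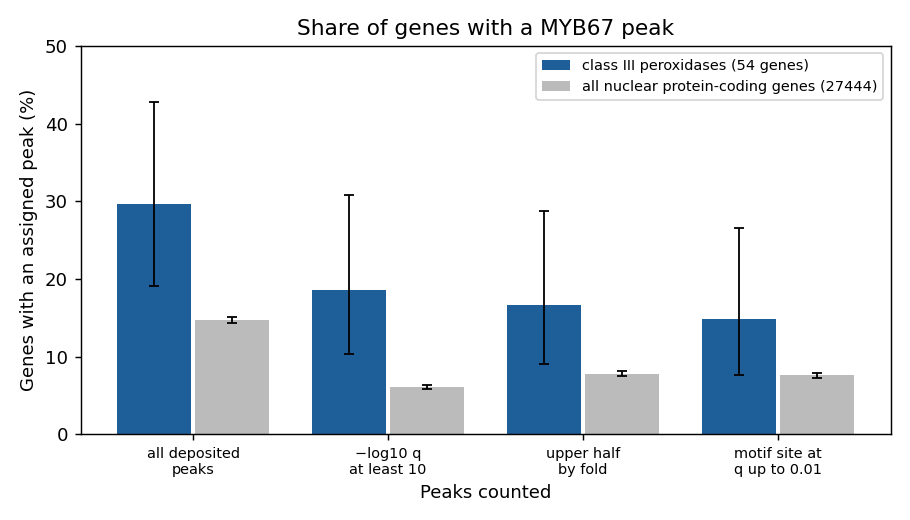
Percentage of genes with an assigned MYB67 peak among 54 class III peroxidase genes (blue) and 27444 nuclear protein-coding genes (grey), for all deposited peaks and for 3 stricter sets. Bars show the share and whiskers the 95% Wilson interval, which covers counting error only; the peroxidase share is 29.6, 18.5, 16.7 and 14.8% from left to right, and the whiskers of the peroxidases are wide in every set.

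Peaks at peroxidase genes were of moderate strength. Fold enrichment is the authors' ratio of signal in the peak to the background modelled by the peak caller. Taking the strongest peak of each gene, the 16 members had a median fold of 5.45 (range 2.80 to 7.07), against 4.47 for all genes with a peak. Of the 16, 7 lay above 5.66, the 75th percentile of all such genes, and 3 lay below 3.78, the 25th percentile. No member exceeded 7.59, the 90th percentile, and the highest fold at any gene was 21.6. With 16 genes, this absence is not read as a trait of the members. The median −log10 q of the members was 13.3, against 8.36 for all genes with a peak.

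**Figure D2:**
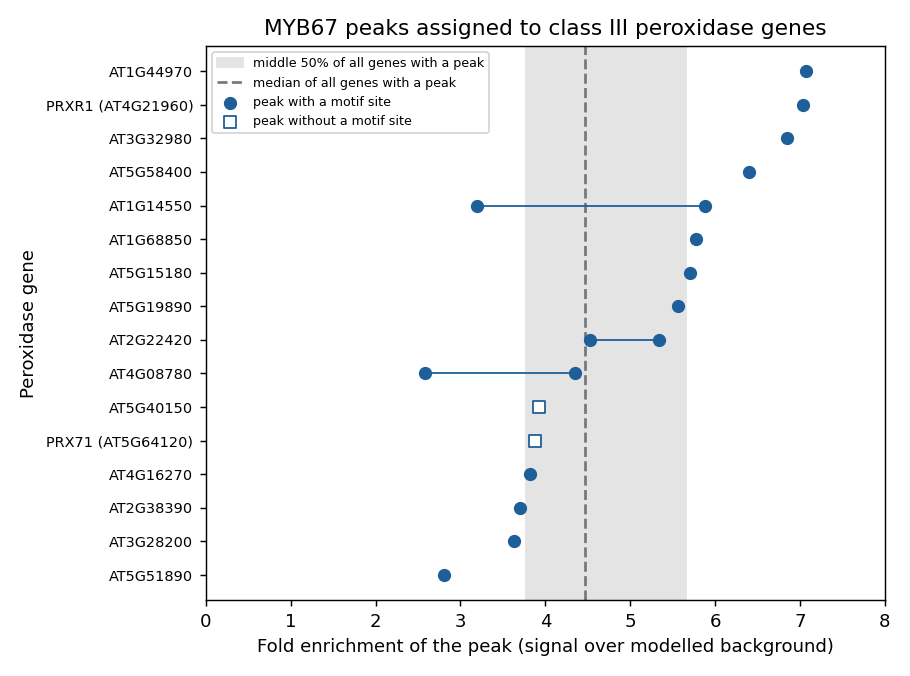
Fold enrichment (horizontal axis) of the 19 MYB67 peaks at 16 peroxidase genes, 1 row a gene, with a line joining peaks of the same gene. The grey band spans the middle 50% of all genes with a peak (3.78 to 5.66) and the dashed line their median, 4.47; open squares mark the peaks without a motif site, at AT5G40150 and PRX71.

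The strongest peak by fold lay at AT1G44970 (chromosome 1, 17001821 to 17002175, TAIR10), with a fold of 7.07, a −log10 q of 18.7 and 3 motif sites. PRXR1 (AT4G21960; chromosome 4, 11645752 to 11645996) followed closely with a fold of 7.04, a −log10 q of 20.9 and a single site. The peak of AT3G32980 (chromosome 3, 13528126 to 13528543) had a fold of 6.85 and the highest −log10 q of the members, 31.8. These 3 genes ranked 503, 524 and 566 by fold among the 4030 genes with a peak. Their folds are close, and no error is available to order them.

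A middle group of 6 genes had strongest peaks between 5.33 and 6.40. AT5G58400 (chromosome 5, 23608025 to 23608358) had a fold of 6.40, and AT1G14550 (chromosome 1, 4980295 to 4980695) had 5.88. AT1G68850 (chromosome 1, 25885302 to 25885628) had 5.78, AT5G15180 (chromosome 5, 4929892 to 4930142) 5.71 and AT5G19890 (chromosome 5, 6725108 to 6725353) 5.56. AT2G22420 (chromosome 2, 9513219 to 9513500) had 5.33. All 6 exceeded the median of all genes with a peak.

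The remaining 7 genes lay below that median. AT4G08780 (chromosome 4, 5604679 to 5605150) had a fold of 4.35 in the widest member peak, of 472 bp. AT5G40150 (chromosome 5, 16060883 to 16061115) had 3.93, and PRX71 (AT5G64120; chromosome 5, 25660018 to 25660214) 3.87. AT4G16270 (chromosome 4, 9205457 to 9205668) had 3.81, AT2G38390 (chromosome 2, 16079512 to 16079706) 3.70 and AT3G28200 (chromosome 3, 10519281 to 10519550) 3.63. The weakest was AT5G51890 (chromosome 5, 21092906 to 21093228), with a fold of 2.80 and a peak q of 0.000527, at percentile 2.33 of genes with a peak.

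Some member peaks, strong and weak, shared both their fold and their q with other peaks of the list. The values of the strongest, at AT1G44970, stood at 23 other peaks. The fold and q of the AT5G40150 peak stood also at 147 other peaks of the list, those of AT3G28200 at 120, and those of PRX71 at 23. The weaker peak of AT2G22420 shared both values with 84 others. The order of such peaks by fold is therefore an order of a few discrete levels. In 9 of the 19 member peaks, among them the low peaks of AT1G14550 and AT2G38390, the pair of values was found at no other peak.

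Ranking by fold and by −log10 q did not give the same order, as the plot of both measures shows. The main peak of AT2G22420 had a −log10 q of 25.5, the second highest of the members, at a fold of 5.33. The 20 nuclear peaks nearest to it in −log10 q had folds of 6.82 to 8.27, all above it. For AT1G68850, at a −log10 q of 22.2, the fold of 5.78 also lay below all 20 of its counterparts, which ran from 6.05 to 7.67. AT3G32980 stood at 6.85 against a median of 9.11 in its counterparts (range 6.14 to 9.62). The opposite held for AT5G19890, whose 5.56 lay above all 20. The highest fold of these was 5.38, which was also their median, so many of them were tied at this level. The fold of 11 of the 19 member peaks was below the median of their counterparts. Not all the others lay above it, as AT1G44970, AT3G28200, AT5G40150 and PRX71 stood at that median. The same comparison was not made for all peaks of the list, so these counts are not read as a trait of the members.

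**Figure D3:**
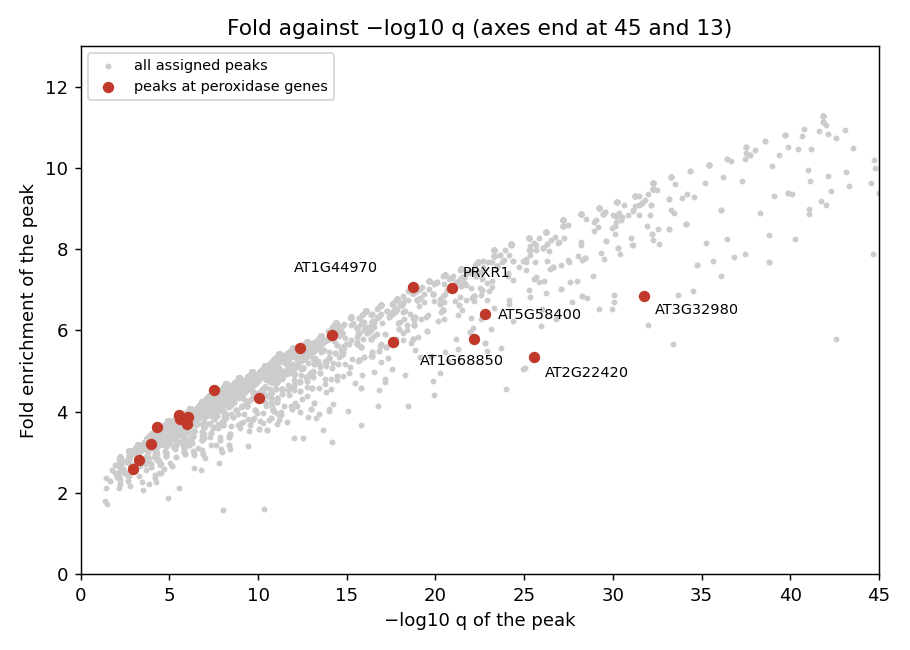
Fold enrichment (vertical axis) against −log10 q (horizontal axis) for assigned peaks (grey) and the 19 peaks at peroxidase genes (red), of which 6 are named. The axes end at a −log10 q of 45 and a fold of 13, which leaves out 92 grey peaks; AT2G22420, AT1G68850 and AT3G32980 lie below most peaks of similar −log10 q.

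Among the bound members 3 of 16 had 2 peaks, whereas 9.06% of all genes with a peak had 2 or more. At AT1G14550 the peaks lay 1749 bp apart with folds of 3.20 and 5.88. At AT2G22420 they lay 837 bp apart with folds of 4.53 and 5.33. At AT4G08780 they lay 3081 bp apart with folds of 2.58 and 4.35. The weaker peak of AT4G08780 was the weakest of all 19 and had the fold and q of 3 other peaks. No member had 3 peaks.

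Motif sites were present in most of these peaks and not in excess of other peaks. FIMO, a motif scanner, was used by the authors to find sites of the MYB67 motif, kept up to a site q of 0.05. Such a site was present in 17 of 19 member peaks (89.5%), whereas 96.6% of assigned peaks held a site. The 19 peaks held 40 sites, 2.11 a peak on average, against 2.31 in the 4412 other assigned peaks. Median width was 251 bp at the members and 256 bp elsewhere. Per 100 bp the means were 0.731 and 0.845 sites. No member peak held 5 or more sites, and few of the others did, 244 of 4412. With 19 peaks their absence is not read as a trait of the members. A site at a q of up to 0.01 was present in 9 of the 19 (47.4%), near the 49% of all assigned peaks.

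**Figure D4:**
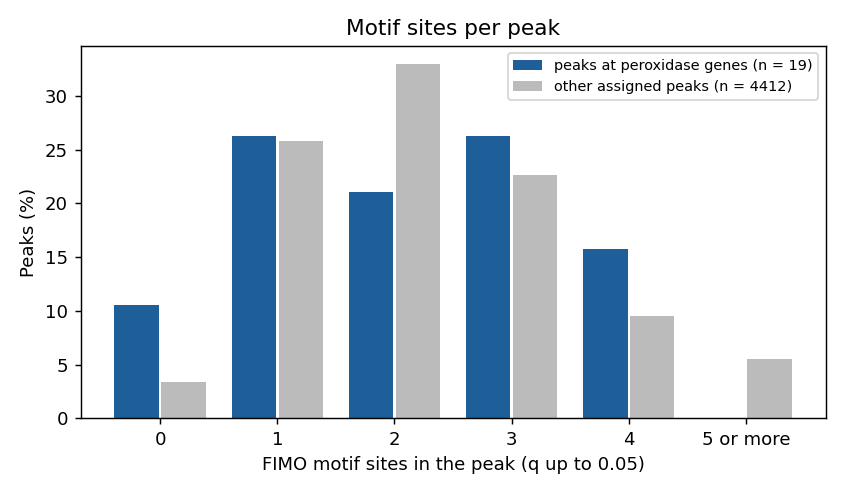
Percentage of peaks (vertical axis) by number of FIMO motif sites in the peak (horizontal axis), for the 19 peaks at peroxidase genes (blue) and 4412 other assigned peaks (grey). Both groups have a median of 2 sites. Of the 19 peaks 2 hold no site and none holds 5 or more, which 244 of the 4412 other peaks do.

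In several members the number and quality of sites did not run in parallel with the fold. The weaker peak of AT1G14550, with a fold of 3.20, held a site with a q of 0.00462, whereas the best of the 4 sites in its stronger peak had a q of 0.0308. AT5G15180 held 4 sites including another with a q of 0.00462, and AT5G19890 held 4 sites of which the best had a q of 0.0178. PRXR1 reached its fold of 7.04 with 1 site, of q 0.00632. AT5G58400 had 6.40 with 1 site, of q 0.0127, in a peak of 334 bp. AT5G51890 had a better site, with a q of 0.00739, at the lowest gene fold of the members. In the deposited site list all 12446 entries carry the coordinates of a whole peak, so sites could be counted for each peak but not placed within it.

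The peaks of AT5G40150 and PRX71 held no site at a q of up to 0.05. A further peak of the list lay 154 bp from that of AT5G40150, had a fold of 5.42 and 3 sites, and was assigned by the authors to AT5G40153. The peak of PRX71 lay 3967 bp from the nearest other peak. AT1G68850 stood in a row of 3 peaks, with a peak of fold 5.30 at 587 bp, assigned to AT1G68862, and another of fold 5.24 at 2051 bp, assigned to AT1G68845. On 1 side of AT3G32980 the next peak was 396344 bp away.

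Members were also grouped by 5 short lists of roles known for the family, which together hold 17 members. Of these 17, 5 had a peak, and of the 37 members in no list 11 had a peak. In the list for lignin formation and xylem, 3 of 8 had a peak, namely AT2G22420, AT5G51890 and PRX71, with a median fold of 3.87. At a −log10 q of at least 10 only AT2G22420 was left of these. PRX72 and PRX52, which contribute to stem lignin, and PRX25, PER4 and AT4G33420 had no assigned peak. PRX71 is known for a role in stiffening the wall and restricting growth.

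The Casparian strip is the lignin ring that seals the endodermis. In its list 1 of 4 had a peak, AT1G44970, while RCI3, a cold-inducible gene, AT4G11290 and PRX72 had none. This list holds only members, so peroxidases of the strip outside the member list were not counted. In the list for extensin cross-linking in root hairs and anthers, 2 of 4 had a peak, AT1G44970 and AT4G16270, with folds of 7.07 and 3.81. RHS19, a gene with root hair expression, and AT4G26010 had none. Of 4 genes known for the oxidative burst in defence, only PRX71 had a peak, and PER4 and the pair PRXCA and PRXCB had none. PER36, which acts in the release of seed coat mucilage, had no peak. With 1 to 8 genes a list, these shares are imprecise and were not tested against each other or against the background of 14.7%. The 95% Wilson interval of 3 of 8 spans 13.7 to 69.4%.

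Of the 13 members that the gene table names, 2 had a peak, PRXR1 and PRX71 (15.4%). Of the 41 known there by locus 14 had a peak (34.1%), where 14.7% of all genes did. This split was made after the values were seen. With 13 named members the first share is imprecise, and the difference was not tested. Named members without a peak were RCI3, PER4, PRX25, PRXCA, PRXCB, PER36, Prx37, PRX52, PA2, PRX72 and RHS19.

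The members include 7 runs of adjacent genes with no other protein-coding gene between, 15 genes in all. In 5 runs exactly 1 gene had a peak, in 2 runs no gene had a peak, and no run had more than 1. How often adjacent genes both had a peak was not counted over all genes. With 7 runs, the absence of a run with more than 1 bound gene is not read as a trait of the members. The bound genes were AT1G14550 beside PER4, AT2G38390 beside AT2G38380, AT4G08780 beside Prx37, AT5G58400 beside AT5G58390, and PRX71 beside AT5G64110 and AT5G64100. AT4G37520 with AT4G37530, and PA2 with AT5G06730, had none. Each peak was assigned to at most 1 gene, so a peak between adjacent genes counts for only 1 of them. In all, 5 of the 15 genes in runs had a peak (33.3%) and 11 of the 39 members outside them (28.2%), where 14.7% of all genes did. Of the 38 members without a peak, 11 lay next to a gene of any kind with a peak (28.9%), and 26.4% of all genes without a peak did so.

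Enzymes that act with the peroxidases were counted in the same way, against the same background of 14.7%. NADPH oxidases had a peak at 5 of 10 genes (50%, 95% Wilson interval 23.7 to 76.3%). RBOH F (AT1G64060), which supplies peroxide for the Casparian strip, had 3 peaks with folds of 13.8, 5.12 and 4.49. The first of these (chromosome 1, 23768405 to 23768752) had 5 sites and put the gene at percentile 99.4 of genes with a peak, above every peroxidase. AT4G11230 had a fold of 8.85, RHD2 (AT5G51060), the oxidase of root hair growth, 7.68, and RBOHD (AT5G47910), the oxidase of the immune burst, 6.86. AT3G45810 had 4.23. At a −log10 q of at least 10, 4 of the 10 oxidases had a peak (40%) and 10 of the 54 peroxidases (18.5%), with 6.07% of all genes.

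Laccases were taken as genes whose symbol in the gene table is LAC with a number, so any laccase under another symbol was not counted. Of these 14 genes 5 had a peak (35.7%, interval 16.3 to 61.2%), with a median fold of 4.53 against 5.45 for the peroxidases. At a −log10 q of at least 10, 1 laccase had a peak (7.14%), near the 6.07% of all genes. At a site q of up to 0.01 the count was also 1 (7.14%), near the 7.63% of all genes. Among peaks in the upper 50% by fold, 3 laccases had a peak (21.4%), against 7.81% of all genes and 16.7% of the peroxidases. The intervals of the 3 sets of genes overlap, and with no values by library their differences were not tested.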

How the data were processed

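Per the labels' protocols, 2 Halo-MYB67 and 2 Halo-only libraries were made from Col-0 genomic DNA. The submitters' processing notes name MACS3 3.0.0a7, STAR 2.7.10a and HOMER among their tools, and TAIR10 as the build, without roles or settings. How replicates and empty-vector libraries entered the peak calls, and by what rule peaks were joined to genes, are not given in the sources used here. The authors deposited, for each peak, a fold enrichment (a ratio to the modelled background), a −log10 q, a q-value and at most 1 gene. A separate deposited list gives a q-value for each FIMO site; entries repeated in full were each counted.

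Peaks were joined to members by locus and counted with Python 3.11.15 and pandas 2.3.3. Where a gene had several peaks, the peak of highest fold gave its value. Names come from a RefSeq table of TAIR10.1, used for names, gene order, the number of nuclear protein-coding genes behind each share, and the alternative choice of members by symbol. Positions are those of the peak list, counted from 1. Shares have 95% Wilson intervals (scipy 1.17.1). No test was run, since no value belongs to a library. The counting was tested on simulated data. Every member with a peak is named, and members without a peak are named if they stand in a role list, in a run of adjacent genes or in the set the table names. The last 2 of these sets were added after the values were seen. Role lists rest on general knowledge of the family, not on the table. The members and lists were chosen with earlier results of these data known. Sequences of promoters and proteins, and distances from gene starts, were not analysed here.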

Additional observations from a re-analysis of the deposited data

How the results depend on the processing

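The count of 16 peroxidase genes with a peak depended on the peaks used, being 10 at a −log10 q of at least 10, 9 in the upper 50% by fold and 8 with a site q of up to 0.01. The share of the 54 members exceeded that of all genes in each of these sets. The sets use the same list, chosen with earlier results known, so they are not separate support for an excess. Taking members by a PER or PRX symbol or synonym in the gene table matched only 14 genes, 4 of them not members, and left 1 gene with a peak and 0 sites a peak, so this alternative says little. With 19 further family loci, an alternative chosen after seeing the data, the count stayed at 16 and the share was 21.9%. The symbol alternative gave a fold of 3.87, that of PRX71 alone. Over the other alternatives that keep fold as the measure, the median of 5.45 ran from 4.73 to 5.88. The value of 5.88 comes from the set cut by fold, which favours high folds by design. The median −log10 q was 13.3, against 8.36 for all genes with a peak. Sites numbered 2.05 a peak with repeated entries counted once and 0.731 per 100 bp. They numbered 2.8 a peak at a −log10 q of at least 10 and 2.7 in the upper 50% by fold. With a site q of up to 0.01 they numbered 2.22, in a set that holds only peaks with a site. No paired analysis was possible because no deposited value belongs to a single library, and leaving out a replicate was not run for the same reason. Assignment to the nearest gene, promoter overlap and promoter motifs were not run, as no gene coordinates or sequences of the peaks' build were used. Depth is unknown, so a member without a peak may still be bound below the authors' threshold.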

Other observations

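Of the 11 peroxidase genes without a peak that lay next to a gene with a peak, 5 adjoined another peroxidase. The other 6 adjoined a different gene. AT1G71695 adjoined AGL12, a MADS-box gene of root development, with a fold of 8.27, and AT5G64100 adjoined AT5G64090 with 6.92. AT4G30170 adjoined AT4G30180 with 4.85, RHS19 adjoined AT5G67390 with 4.23, AT1G49570 adjoined AT1G49580 with 4.04 and AT2G18150 adjoined bZIP2 with 3.71. Whether any of these peaks lies nearer to the peroxidase was not determined.

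Many peaks at peroxidase genes lay close to another peak of the list, in part because of pairs at the same gene. The median gap to the nearest other peak was 3205 bp for the 19 member peaks and 6501 bp for the other assigned peaks, and 14 of the 19 (73.7%) had another peak within 5000 bp, against 42.2%. In 3 genes the pair of peaks at the same gene adds to this count. For both peaks of AT1G14550 and AT2G22420, and the stronger peak of AT4G08780, the only peak within 5000 bp was the gene's own other peak. On their other sides the next peak lay 6002 to 40293 bp away. Pairs at the same gene were also counted among the other assigned peaks, and a share without pairs was not computed. The comparison was chosen after the data were seen and was not tested.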
